A study of Mus musculus with 563 samples.

Results

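Old haematopoietic stem cells (HSCs) of the LO group were split by their Socs3 reads, and the cells high in Socs3 were compared with those without a Socs3 read. The members were chosen by their own Socs3 values. A Socs3-high cell held at least 50 Socs3 counts per 1000000 nuclear gene reads (CPM), and a Socs3-negative cell held 0 Socs3 reads. Cells with at least 50000 nuclear gene reads, at least 1000 genes read and at most 20% mitochondrial reads were kept, and the LO cell numbered 58 was left out. By its Socs3 reads, cell 58 would have been a high cell of the first table. The kept LO cells comprised 43 Socs3-high cells (19 in the first count table and 24 in the second), 75 Socs3-negative cells (34 and 41) and 17 cells between the limits, called Socs3-low here (11 and 6). The 43 high and 75 negative cells are compared here, out of a series of 563 cells, 533 of which passed the same limits.

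The series holds single bone marrow HSCs of the genotype Gfp-Lc3, isolated at steady state. Gfp-Lc3 is a fusion of green fluorescent protein and LC3, a protein that coats autophagosomes, and the transgene has its own eGFP and rat Map1lc3b entries in the count tables. Cells were sorted singly into wells with an index record of surface markers and GFP-LC3 level, and libraries were made by a modified Smart-seq2 protocol. The groups are young, old LO, old MID and old HI cells; the labels give no age beyond young and old, no sorting limit for the 3 old groups, and no strain. No label ties a cell to a mouse. Each class was therefore 1 sample in each table: no test was run, and intervals cover counting error only, since reads without molecular identifiers are not independent molecules. Fewer cells making a transcript and less transcript per cell cannot be told apart in a sum over cells.

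SOCS3 is an inhibitor of cytokine receptors. IL6, other ligands of the gp130 receptor chain and G-CSF activate JAK kinases at their receptors, the kinases activate STAT transcription factors, and STAT3 switches on Socs3; the SOCS3 protein then binds the receptor and the kinase and damps the signal. Relatives in the same family, among them CISH, SOCS1 and SOCS2, act on other receptors and are switched on by STAT5 and other STAT factors. Transcripts of this kind are short-lived.

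The sequence upstream of Socs3 shows the kind of site at which STAT factors bind. The RefSeq promoter table (build GRCm38.p6) gives the 250 bases before the 1 start listed for Socs3, at chr11:117969367-117969616, minus strand. The motif TTCNNNGAA, searched on both strands, matched once, and the capitals mark the match, whose first base lies 154 bases before the start. The same window is shown for Cish (chr9:107296409-107296658, plus strand), the family member that was higher beside Socs3, and for Rhbdd1 (chr1:82316329-82316578, plus strand), the gene with the largest difference. The starts are those of RefSeq and differ from the outer ends of the GENCODE M21 gene models whose coordinates are given with the genes: the Cish window lies inside its GENCODE model and the Rhbdd1 window, the first of 2 listed, overlaps the beginning of its own. Neither of these windows holds the motif, and both are in lower case throughout.
Socs3: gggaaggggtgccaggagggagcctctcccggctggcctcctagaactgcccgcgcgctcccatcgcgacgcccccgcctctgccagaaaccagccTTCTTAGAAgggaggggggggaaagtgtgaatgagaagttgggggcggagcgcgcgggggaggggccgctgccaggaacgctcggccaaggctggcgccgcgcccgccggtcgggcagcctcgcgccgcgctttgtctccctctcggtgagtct
Cish: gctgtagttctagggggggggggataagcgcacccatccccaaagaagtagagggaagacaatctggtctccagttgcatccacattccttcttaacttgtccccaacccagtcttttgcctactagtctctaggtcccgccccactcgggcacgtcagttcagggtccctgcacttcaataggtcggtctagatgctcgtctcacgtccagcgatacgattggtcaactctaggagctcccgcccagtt
Rhbdd1: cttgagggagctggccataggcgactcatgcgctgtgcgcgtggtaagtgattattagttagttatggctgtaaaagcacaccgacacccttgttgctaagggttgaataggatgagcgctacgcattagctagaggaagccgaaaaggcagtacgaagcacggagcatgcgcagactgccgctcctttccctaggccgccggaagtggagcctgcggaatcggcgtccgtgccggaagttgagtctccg

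Socs3 itself was spread widely among the cells that its limit selected. In the first table the 19 high cells ranged from 63.1 to 662 CPM with a median of 268, and in the second the 24 high cells ranged from 50.3 to 947 CPM with a median of 218. Summed over cells, Socs3 made up 257 CPM of the high class in the first table (1590 reads) and 320 CPM in the second (2686 reads). The 3 cells just under the limit held 46.87, 47.97 and 48.61 CPM, and the 3 just over it held 50.3, 54.8 and 62.2 CPM. The lowest of these high cells rests on 5 reads in a cell of 99495 nuclear reads. A 0 is as uncertain: 3 reads, which a count of 0 allows, would be between 3.84 and 53.7 CPM over the negative cells, and in 2 of them more than 50 CPM. These values chose the classes and carry no test.

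**Figure D1:**
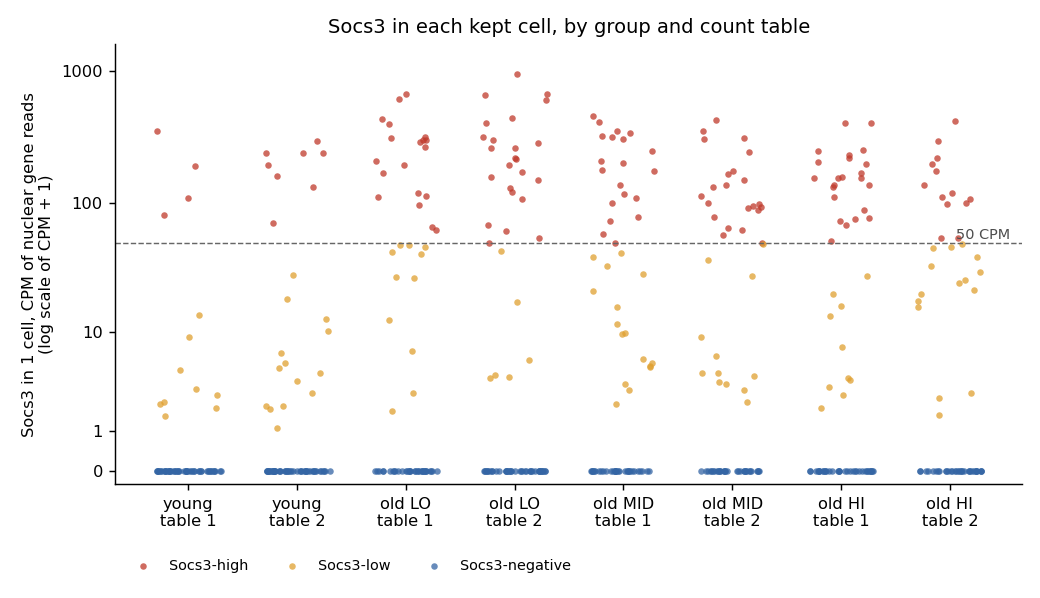
Socs3 in each kept cell on a log scale of CPM plus 1, by group and count table, without LO cell 58; colours give the Socs3 class and the dashed line the limit of 50 CPM. The highest value, 947 CPM, is in a LO cell, and a low class of 17 cells lies between the 43 high and the 75 negative cells.

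Socs3-high cells made up 31.9% of the LO cells (95% Clopper-Pearson interval 24.1% to 40.4%), 31.3% of the MID cells (23.6% to 39.9%), 27.9% of the HI cells (20.4% to 36.5%) and 8.96% of the young cells (4.71% to 15.1%). With every cell thinned to 100000 nuclear reads and shallower cells left out, the shares were 35.2%, 33.1%, 29.3% and 9.38%. These shares describe the values that define the classes, and the intervals count cells, not mice, so the groups were not compared by a test.

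High and negative LO cells differed in depth. Nuclear reads per cell ranged from 74747 to 910069 with a median of 312878 in the high class, and from 55822 to 782009 with a median of 234095 in the negative class. Medians of genes read were 8163 and 7612, of mitochondrial reads 2.20% and 2.09%, and of spike-in reads 2.10% and 2.29%. Each named gene was recomputed from cells thinned to 100000 reads, where 34 of the 44 named genes past the size rule described below met it again. The 10 that did not were Prom2 (1.98), Ubxn11 (2.75), Zfp612 (2.21), Hk2 (0.99), Clec1b (0.92), Tax1bp1 (0.90), Piga (-3.44), Mrm3 (-2.47), P3h4 (-1.18) and Asns (-0.73), on the log2 scale. At least 20 reads of Y-linked genes were found in 41 of 43 high and 63 of 75 negative cells.

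Both classes carried the HSC markers. All 8 markers listed for HSCs, among them Procr, Slamf1, Kit, Hlf and Fgd5, had reads in both, and their summed level ranged over cells from 2040 to 7211 CPM (median 4129) in the high class and from 1160 to 6689 CPM (median 3878) in the negative class. Stat3, the factor that switches on Socs3, stood at 306 CPM in high and 259 CPM in negative cells and was read in 41 of 43 and 72 of 75 of them. It was thus read in nearly every cell of either class, and it overlaps Stat5a in the annotation.

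A size rule described the differences across genes. Counts were summed over the cells of each class and table and scaled to CPM, and a difference is that of log2(CPM + 1), high minus negative, taken in each table and averaged. The rule asked for a mean difference of 1 or more in size, with one sign and a size of 0.58 or more in both tables, at least 20 CPM and a read in at least 20% of the higher class's cells in each table, and no cell with over 25% of that class's reads. Of 10662 genes tested, 1.2% were higher in Socs3-high cells and 187 (1.75%) were lower, with a median difference of 0.01 over all genes tested. With the same split, 1.28% of genes were higher and 155 (1.46%) lower in MID cells, and 92 were higher (0.867%) and 163 lower (1.54%) in HI cells. Young cells gave 25 higher (0.241%) and 895 lower genes (8.62%), with only 4 and 8 high cells in the tables and a median over all genes of -0.28.

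The profile as a whole did not repeat between the tables. Across the 10662 genes, the differences of the first and the second table had a Pearson correlation of 0.02, given as a description since genes are not replicates. The first table held 2055 genes whose difference was 1 or more in size, and the second gave 1055 of them (51.3%) that sign again. The correlation was 0.07 for the 1618 genes between 100 and 200 CPM and 0.18 for the 753 genes at 200 CPM or more, and lay between -0.01 and 0.03 in the lower bands. The lower bands held most of the higher genes: 69 of the higher genes had a mean of 20 to 50 CPM, and 3 of the higher and 0 of the lower genes reached 200 CPM. The values of single genes below are to be read against this.

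**Figure D2:**
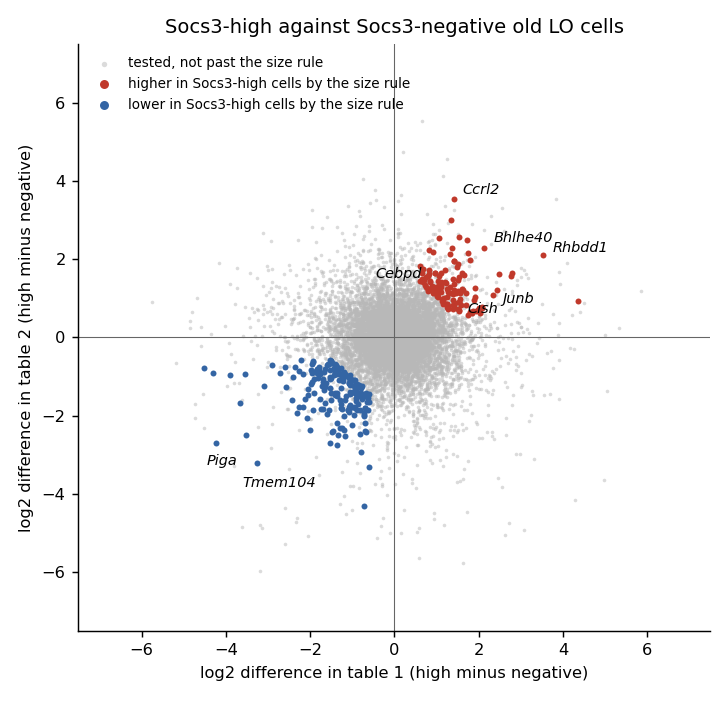
Log2 differences of the 10662 tested genes between Socs3-high and Socs3-negative LO cells, first table on the x axis and second on the y axis; colours mark the higher and the 187 lower genes of the size rule. The cloud is round, with a Pearson correlation of 0.02, and the coloured genes share their sign between the tables because the size rule requires it.

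Among the inhibitors of the SOCS family, Cish was higher beside Socs3. Cish (chr9:107296026-107302784, plus strand, GRCm38) encodes the inhibitor that STAT5 switches on. It stood at 305 CPM in high and 103.01 CPM in negative cells of the first table and at 167 and 75.03 CPM in those of the second. Cells ranged from 0 to 1151 CPM in the high class (median 73.2) and from 0 to 551 CPM in the negative class (median 6.98), so the classes overlapped widely, with a higher centre in the high class. That shift was small in the second table, where the middle high cells held 1.84 and 26.4 CPM and the middle negative cell 4.02 CPM. It was read in 32 of 43 high and 46 of 75 negative cells, or in 68.3% and 53.8% of cells after thinning. The difference was 1.55 in the first table and 1.14 in the second, mean 1.35, and 1.18 without the cell with most Cish reads. Over both tables the Socs3-low cells averaged 147 CPM, between the other classes. In the second table, with 6 low cells of up to 602 CPM, the low class stood above the high class. Without the cells that carried at least 3 markers of another cell type, which left 9 and 13 high and 21 and 23 negative cells, the difference was 0.49 and no longer met the rule.

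Of 16 inhibitors of JAK and STAT signalling tested (SOCS, CISH, PIAS and phosphatase genes), Cish was the only one past the rule, 7 were higher in both tables and 2 lower, and the median was 0.16 beside 0.01 over all genes. Of all 10662 genes tested, 27% were higher in both tables and 24.7% lower in both, the shares against which such counts are to be read. Socs1 (chr16:10782240-10785536) was at 36.6 CPM in high and 10.5 CPM in negative cells of the first table but at 23.6 and 16.01 CPM in the second, differences of 1.71 and 0.53 that missed the rule. Its reads came from 18 of 43 high and 19 of 75 negative cells. Socs2 had differences of 1.93 and 0.40. Socs6, at -0.33 and -0.55, and Socs5, at 0.05 and -1.25, had the lowest values of the list.

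Receptors and kinases of the pathway gave no gene past the rule. Among 7 gp130 family receptors tested the median was 0.43, among 21 other cytokine receptors 0.18, and among 11 JAK kinases and STAT factors 0.24. The table values of these lists differed, at 0.13 and 0.44, -0.10 and 0.57, and 0.16 and 0.25. Il6st, which encodes the gp130 chain itself, had 97.9 CPM in high and 47.3 CPM in negative cells of the first table and 66.5 and 60.6 CPM in the second, a mean difference of 0.58. Il6ra, the IL6-binding chain, was at -0.10 and 1.98. Osmr, the oncostatin M receptor and itself a STAT3 target, was lower in both tables (-0.58 and -0.84). Lifr had 1.19 CPM in high and 0.52 CPM in negative cells and did not pass the level filter of a mean of 10 CPM and a read in 10% of cells. Il12rb1 had the highest value of the gp130 list (1.11 and 0.89), Csf3r, the G-CSF receptor, was near 0 (0.13 and 0.13), and Stat5a was at 0.27 and 1.23, Jak2 at 0.13 and 0.25.

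Among 23 STAT3 target genes tested, 3 were higher by the rule (Junb, Mt2 and Cebpd) and none was lower, beside 1.2% and 1.75% of all genes. The median was 0.12 beside 0.01 over all genes. Of the members, 11 were higher in both tables and 6 lower in both, beside 27% and 24.7% of all genes. The median was -0.15 in the first table and 0.23 in the second.

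Junb, an AP-1 transcription factor gene and an early cytokine target, had the largest difference of the 3. It stood at 384 CPM in high and 75.1 CPM in negative cells of the first table, and at 244 and 115.7 CPM in the second, differences of 2.34 and 1.07 with a mean of 1.71. High cells ranged from 0 to 2735 CPM (median 98.1) and negative cells from 0 to 718 CPM (median 7.27). The share of cells with a read was similar, 27 of 43 against 43 of 75. In the first table the difference in the sums rested largely on high cells of 2735 and 1944 CPM. The next highest high cell there was at 518 CPM. Without the cell with most Junb reads the difference was 1.39, and without the cells carrying other types' markers 0.63, past the rule no longer. The gene (chr8:84974484-84978718, minus strand) overlaps Prdx2 in the GENCODE M21 annotation, and how reads of overlapping genes were treated is not given in the sources used here.

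Cebpd, a transcription factor of the acute-phase response, was at 59.8 and 27.4 CPM (high, negative) in the first table and 42.6 and 15.7 CPM in the second. Its differences of 1.10 and 1.38 rest on few cells, 15 of 43 high and 14 of 75 negative with a read, and the median cell of each class held 0. Without its top cell the mean difference was 0.99, just under the rule. Mt2, a metallothionein that binds zinc, was at 22.9 and 6.32 CPM in the first table and 21.7 and 11.8 CPM in the second (1.71 and 0.82). Without the cell with most Mt2 reads the second table gave 0.31, and the rule was no longer met. Mt1, which lies beside it in the genome, was lower in both tables (-0.23 and -0.25), so the pair differed in direction. Other direct targets gave small or split values: Pim1 0.20 and 1.02, Bcl3 -0.37 and 0.46, and Gadd45g, a growth-arrest gene, 1.38 and 1.65 but with 31.6% of the high class's reads in 1 cell, over the limit of the rule.

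**Figure D3:**
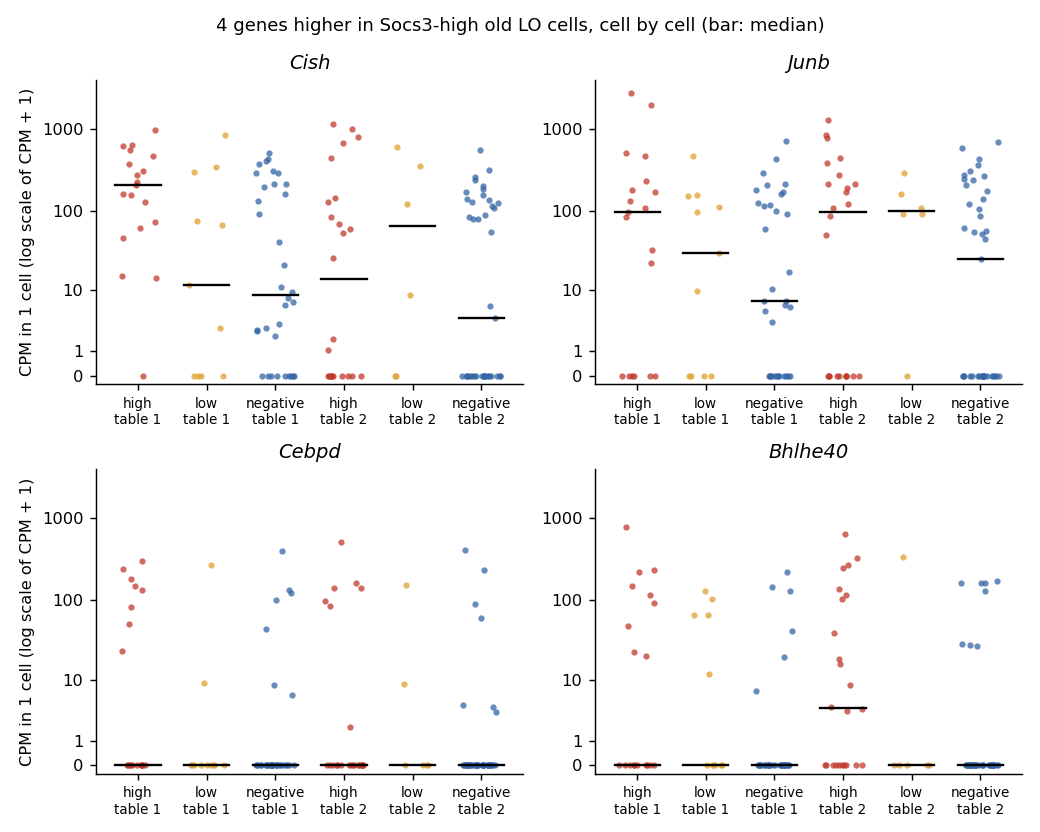
CPM of Cish, Junb, Cebpd and Bhlhe40 in each LO cell on a log scale of CPM plus 1, by Socs3 class and count table, with black bars at the median cell. High and negative cells overlap for all 4 genes; the Cish and Junb medians are higher in high than in negative cells of both tables, while for Cebpd the median cell of every class is at 0.

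Immediate early genes, which many signals and also cell handling switch on, were higher on the median, but single members differed in direction. Of 32 tested, Junb was the only one past the rule, 13 were higher in both tables and 2 lower (27% and 24.7% of all genes), and the median was 0.37. Fos, the AP-1 partner of Junb, was lower: 51.6 CPM in high against 79.9 CPM in negative cells of the first table and 30.8 against 49.5 CPM in the second, a mean difference of -0.64 that missed the rule. It was -0.29 (0.10 and -0.67 by table) without the negative cell with most of its reads, and 1.12 once the cells with other types' markers were left out. Egr1 had 2.28 in the first table and -1.10 in the second. Dusp6, a phosphatase gene downstream of MAP kinases, had 3.01 and 1.55, with a read in 4 and 7 high cells, and Dusp1 1.47 and 0.79; neither met the rule. Btg2 had 0.54 and -4.97, a mean of -2.21 in which 1 cell moved the value by over 1.5 times.

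The transcription repressor Bhlhe40 was among the 15 highest genes, with similar values in both tables. This gene (chr6:108660629-108666925, plus strand) was at 98.7 CPM in high and 21.7 CPM in negative cells of the first table and at 84.8 and 16.5 CPM in the second, differences of 2.13 and 2.29. It was read in 23 of 43 high cells (up to 780 CPM) and 14 of 75 negative cells (up to 220 CPM), or 46.3% and 16.9% after thinning. Low cells stood between at 50.1 CPM, but in the second table their reads came from a single cell of 344 CPM. Its difference was 1.89 without its top cell and 1.70 without cells carrying other types' markers, and in neither case was the whole rule met.

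The highest difference was that of Rhbdd1 (chr1:82316452-82445366, plus strand), a gene for a rhomboid protease, at 72.7 and 5.36 CPM in the first table and 45.5 and 9.85 CPM in the second (3.53 and 2.10, mean 2.82). It was followed by the sulfate transporter Slc26a2 (2.64), the atypical chemokine receptor Ccrl2 (2.47), Prom2 (2.23) and Bhlhe40. Ccrl2 was read in 15 of 43 high and 8 of 75 negative cells, at 55.1 and 20.1 CPM in the first table and 42.3 and 2.75 CPM in the second. The others were Ubxn11, Limch1, the zinc finger genes Zfp612 and Zfp958, the circadian repressor Cry1, Smim3, the transcription factor Plag1, the endosome recycling gene Ehd1, Klhl21 and the amino acid transporter chain Slc7a7, between 2.17 and 1.80. Plag1 was read in 25 of 43 high and 36 of 75 negative cells, at 120.42 and 34.1 CPM in the first table and 90.97 and 22.4 CPM in the second. Klhl21 was read in 36 of 43 and 51 of 75 cells, with 71.6 and 12.5 CPM and then 128.2 and 55.1 CPM. Bhlhe40, Cry1 and Plag1 act on transcription, and Slc26a2 and Slc7a7 are parts of transporters.

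At the other end stood Piga (chrX:164419787-164433916, plus strand), which encodes an enzyme of the first step of GPI anchor synthesis. It was at 0.65 and 30.2 CPM (high, negative) in the first table and 1.86 and 17.6 CPM in the second, differences of -4.24 and -2.70. In high cells 19 reads in 7 of 43 cells were found (95% Poisson interval 11.4 to 29.7 reads), against 439 reads in 23 of 75 negative cells (399 to 482). The low cells, at 42.8 CPM, stood above both, so Piga did not follow Socs3 in steps. Tmem104 (-3.25 and -3.22) and the TFIID subunit Taf4b (-3.52 and -2.50) came next. The most widely read of the 15 lowest genes was Ppil1, a splicing factor gene, in 16 of 43 high and 48 of 75 negative cells, at 27.5 and 81.3 CPM in the first table and 16.4 and 112.4 CPM in the second (-1.53 and -2.71).

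The remaining 11 were Slc22a3, Mrm3, Apbb1, Atad2, Zbtb43, P3h4, Fbxo5, Nasp, Pola2, Nudt4 and Hars2, between -2.67 and -2.06. Of these, Nasp (a histone chaperone), Pola2 (a subunit of DNA polymerase alpha) and Atad2 belong to the replication of DNA and chromatin. The cell with the largest number of reads was the same for Nasp, Pola2 and Fbxo5, a negative cell of the second table with 26 G2 and M phase genes read. By the rule it held at most 25% of the negative class's reads of each gene. For Atad2 the top cell was another negative cell of that table, with 20. Without these cells Atad2 (-2.30) missed the rule, and Nasp, Pola2 and Fbxo5 still met it. Nasp was at 5.07 CPM in high against 50.4 CPM in negative cells of the first table and 27.9 against 67.1 CPM in the second, and Pola2 at 7.52 against 41.1 CPM and 19.5 against 76.7 CPM.

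S phase genes were lower as a list. Of 25 tested, 17 were lower in both tables and 0 higher in both, beside 24.7% and 27% of all genes. The median was -0.75 (-0.48 in the first table and -1.49 in the second). As lower, 4 met the rule, beside 1.75% of all genes: Mcm2 and Mcm3, which encode parts of the replicative helicase, Pola1 and Tyms, named after their values were seen. Mcm3 was at 24.2 CPM in high and 120.5 CPM in negative cells of the first table and 50.8 and 176 CPM in the second. Mcm2 was at 68.3 and 163 CPM and at 69.6 and 251 CPM. Rrm2 and Pole, the lowest of the list at -4.59 and -2.83, each drew over 25% of the negative class's reads from 1 cell. Cells with at least 8 G2 and M phase genes read were 1 and 2 among high cells (first and second table) and 0 and 5 among negative cells. Cell 58, itself Socs3-high in the first table, is not in these counts. With it left out, no high cell held more than 10 such genes, while negative cells of the second table held 20, 26, 28 and 33. Without the 8 cells with at least 8 such genes the S phase median was -0.16, and without the cells carrying other types' markers -0.33. Whether the classes differ in their share of cycling cells was not tested. Genes of G2 and M, 16 of them tested, had a median of -1.74 with the cell numbered 58 left out and 0.51 with it kept, and Mki67 was at 0.52 and -3.85.

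**Figure D4:**
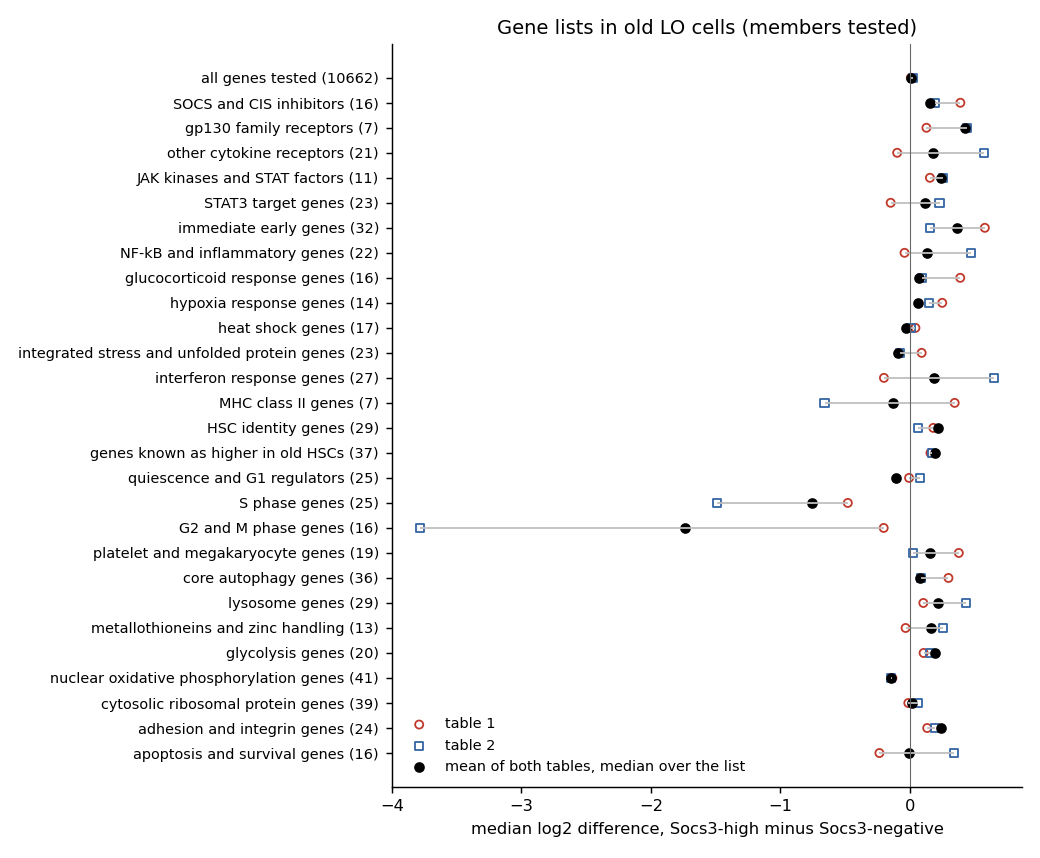
Median log2 difference (Socs3-high minus Socs3-negative LO cells) over the tested members of each gene list, for the first table (circles), the second table (squares) and the mean of both (filled), with the number of members in brackets. Most lists lie within 0.5 of 0, some with the tables on either side of it; S phase genes (-0.75) and G2 and M phase genes (-1.74) lie lowest.

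Quiescence and G1 regulators gave 1 gene of 25 past the rule, Cdkn2c, a cyclin-dependent kinase inhibitor gene, lower at 11.3 CPM in high and 41.2 CPM in negative cells (-2.13 and -1.57). It was -0.998 with cell 58 kept, -0.86 without the cells with at least 8 G2 and M phase genes and 0.47 without the cells carrying other types' markers. Cdkn1c, the inhibitor most tied to HSC quiescence, was near 0 (-0.01 and -0.21).

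Genes of HSC identity gave no call, and those of the aged HSC a few in each direction. None of 29 identity genes met the rule, and their median was 0.22 (0.18 and 0.06 by table). Gfi1, a repressor that restrains HSC cycling, was highest at 1.36 and 1.83, from 9 of 43 high and 11 of 75 negative cells, and Hoxb5 (-1.10 and -0.56) and Tcf15 were lowest; Procr was at 0.19 and 0.25. Among 37 genes known as higher in old HSCs, Mt2 and Dnm3 were higher by the rule and Ramp2 (named after its values were seen), Tdrd9 and Gpr183 lower, with a median of 0.20; over all genes tested 1.2% were higher and 1.75% lower. Without their top cells Dnm3 (0.92) and Tdrd9 (-0.82) missed the rule. Gpr183, an oxysterol receptor gene, was at 65.03 CPM in high and 138.3 CPM in negative cells of the first table and 19.9 and 71.1 CPM in the second. Selp, the adhesion receptor P-selectin, was at 334 and 257 CPM and at 425 and 166 CPM, differences of 0.38 and 1.35 that missed the rule; it was read in 41 of 43 and 63 of 75 cells. Vwf was at 0.57 and 0.03, and Clu, lower in both tables, at -0.34 and -0.66. Clec1b, a platelet receptor gene, was the 1 platelet and megakaryocyte gene of 19 past the rule (0.94 and 1.24); without its top cell it was at 0.93 and missed the rule, and it overlaps Clec9a in the annotation.

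Transcripts of the reporter differed in direction between the tables, and 1 autophagy gene met the rule. The eGFP transgene was at 397 CPM in high and 429 CPM in negative cells, with differences of 0.48 and -0.82 in the tables, and the rat Map1lc3b entry at 0.40 and -0.85; the endogenous Map1lc3b was at 0.27 and 0.10. Of 36 core autophagy genes tested, 1 met the rule and the median was 0.08. That gene was Tax1bp1, an autophagy receptor that also restrains NF-kB signalling, at 506 CPM in high and 243 CPM in negative cells of the first table and 526 and 234 CPM in the second (1.05 and 1.17). It was read in 43 of 43 high and 69 of 75 negative cells, with medians of 383 and 236 CPM per cell, and low cells stood at 423 CPM. Its difference was 1.04 without its top cell, 1.19 without the cells carrying other types' markers, and 0.90 at equal depth, under the rule. Lysosome genes had a median of 0.21 with none past the rule.

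Inflammatory and stress lists gave few genes. None of 22 NF-kB and inflammatory genes met the rule; Irf1 (1.24 and 0.65) and Rela, a subunit of NF-kB (0.89 and 0.98), were higher in both tables and missed it, as did Nfkbie, at 2.06 and 0.81, where 1 cell moved the value by over 1.5 times. Tnfaip3, an NF-kB inhibitor, was at -1.12 and -3.17. None of 27 interferon response genes met the rule, with list medians of -0.20 in the first table and 0.65 in the second. Among 16 glucocorticoid response genes, Mt2 and Cebpd, both counted above among the STAT3 targets too, were higher and Nr3c2 lower. Heat shock genes lay at a median of -0.03, integrated stress genes at -0.09 with Asns and Atf6 lower, ribosomal protein genes at 0.02 and nuclear oxidative phosphorylation genes at -0.14 (-0.14 and -0.14 by table). Hk2, the hexokinase of hypoxia and glycolysis lists, was the 1 gene past the rule in each (1.54 and 0.70), and without its top cell it missed the rule at 0.85. Nr3c2 (-0.93) and Asns (-0.99) also missed it without theirs.

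Markers of other cell types were read in both classes. Of 14 neutrophil and granule markers, 11 had reads in each class, summing to between 216 and 1878 CPM over high cells (median 687) and between 51.1 and 1365 CPM over negative cells (median 622); Ctsg, Lcn2 and Retnlg were at 0 in high cells and Elane, Fcnb and Mmp8 in negative cells. Of 15 monocyte and macrophage markers, 12 and 11 had reads, with medians of 360 and 270 CPM and Lyz2 leading at 401 and 324 CPM. B cell markers summed to a median of 2.51 and 0 CPM and those of T and NK cells to 0 in both, with Vpreb3, Igll1, Cd3e and Cd4 at 0 in each class. Erythroid markers summed to a median of 887 CPM in high and 1424 CPM in negative cells, most of it Car2, which HSCs also express (1053 and 1450 CPM). Endothelial and stromal markers summed to 733 and 226 CPM in the first table and 539 and 393 CPM in the second, led by Cldn5 at 591 and 133.1 CPM and 426 and 301 CPM, while Cdh5 was at 0 in both classes. Dendritic cell markers summed to a median of 519 CPM in high and 616 CPM in negative cells (Itgax and Siglech at 0 in both), basophil and mast cell markers to 345 and 459 CPM (Mcpt8, Prss34 and Cma1 at 0 in both), megakaryocyte markers to 261 and 234 CPM (Gp6 at 0 in both) and multipotent progenitor markers to 468 and 391 CPM (Cd48 at 0 in both). Cells with at least 3 markers of another type, at 2 or more reads each, numbered 21 of 43 high and 31 of 75 negative. Their part in the results was not tested beyond the values without them: 29 of the higher and 74 of the 187 lower genes met the rule again.

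The other groups, whose cells the LO split did not use, gave the measure of how far the LO profile carries over. Of the genes higher in LO cells that were also tested in MID cells, 44 (35.2%) were higher in both tables there, beside 25% of all genes tested in both groups. In HI cells it was 33 (26.8% beside 25.4%), and in young cells 17 (15.04% beside 17.1%). Of the lower genes, 45 of 184 (24.5% beside 25.2%) were lower in both tables of MID cells, 40 of 186 (21.5% beside 25.4%) in HI cells and 56 of 177 (31.6% beside 33.1%) in young cells. All but the higher genes in MID cells thus lay near or under the share of genes at large.

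Meeting the whole rule again was rarer. The higher genes that did so were Plag1 in MID cells (49.4 and 21.1 CPM in high and negative cells, differences of 1.45 and 0.87), Osbpl11 and Nemp2 in HI cells and Cish in young cells, all but Plag1 and Cish named after their values were seen. The genes that met it again were 0.80%, 1.63% and 0.885% of those tested in MID, HI and young cells, beside 1.29%, 0.881% and 0.253% of all genes. The rule was met in the opposite direction by 3, 4 and 13 of the higher genes in MID, HI and young cells, where 1.51%, 1.53% and 8.77% of all genes were lower. Of the lower genes, 7 met it in MID cells, 5 in HI cells and 25 in young cells in the same direction. These were 3.80%, 2.69% and 14.1% of those tested, beside 1.51%, 1.53% and 8.77% of all genes. In the opposite direction 8, 6 and 0 of the lower genes met it, where 1.29%, 0.881% and 0.253% of all genes were higher. Apbb1 was lower in LO and in young cells, Mrm3 and Asns in LO and in MID cells.

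Cish was higher beside Socs3 in 3 of the 4 groups. In MID cells it stood at 142.97 CPM in high and 79.9 CPM in negative cells, with differences of 0.71 and 0.97 in the tables, and in young cells at 219 and 105.2 CPM, with 0.92 and 1.19. In HI cells it was level, at 58.3 and 55.9 CPM (0.19 and -0.49). Its mean difference was thus 1.35 for LO, 0.84 for MID, -0.15 for HI and 1.05 for young cells.

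Junb was higher in both tables of every old group, by 0.38 and 0.56 in MID cells (187 and 137.6 CPM) and 0.43 and 0.65 in HI cells (109.4 and 75.5 CPM), under the size of the LO difference, while the tables of young cells differed in sign. Fos was lower in both tables of every old group: -1.91 and -0.52 in MID cells (28.4 and 57.01 CPM) and -1.47 and -1.60 in HI cells (9.74 and 29.9 CPM). In LO cells the sign of the first table rests on 1 negative cell, without which the difference there was 0.10. Of 9139 named genes tested in LO, MID and HI cells, 187 (2.05%) were higher and 149 (1.63%) lower in all 6 of these tables by group, and Junb and Fos were among them, with mean differences of 0.90 and -1.13. Unrelated signs would also leave some genes alike in all 6, and whether Junb and Fos stand apart from such genes was not tested.

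Bhlhe40 was higher on the mean in MID (86.6 and 45.7 CPM) and HI cells (102.05 and 46.1 CPM), by 1.24 and 0.95, but from 1 table in each (0.03 and 2.46, -1.10 and 3.01), and it was lower in young cells (-3.10). Cebpd had 1.68 and -0.07 in MID and 2.25 and 0.33 in HI cells. Irf1, which missed the rule in LO cells, met it in MID cells (1.84 and 0.66) and was at 0.97 in HI cells. Selp, at 0.86 in LO cells, met it in HI cells (1.04 and 0.999). Rhbdd1 (-0.35 in MID, 0.34 in HI), Slc26a2 (-1.97 and -0.58) and Piga (-0.72 and 0.27) did not keep their LO differences in the other old groups. For S phase genes the median was 0.14 among MID and -0.03 among HI cells.

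**Figure D5:**
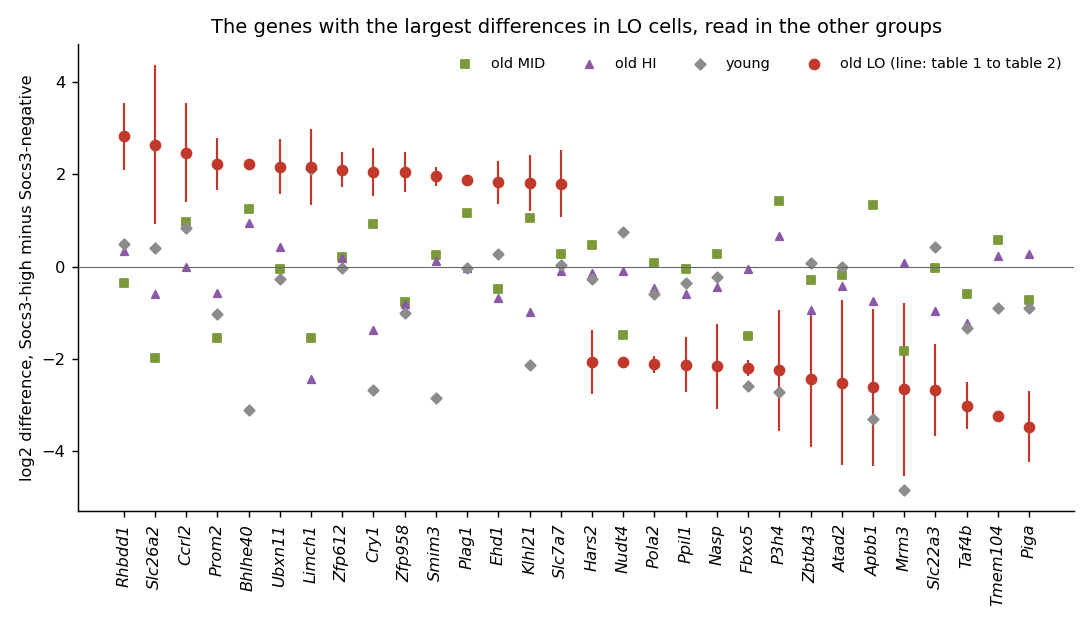
Log2 differences (Socs3-high minus Socs3-negative) of the 15 highest and 15 lowest LO genes in LO cells (red, with a line joining the values of both tables) and in MID, HI and young cells. The other groups scatter around 0 on both sides; Plag1 (1.16 in MID) and Bhlhe40 (1.24 in MID and 0.95 in HI) are among those that kept their sign in MID cells.

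The STAT motif was no more frequent upstream of the higher genes than of all genes tested. The first start listed for each gene was used. An entry in the promoter table was found for most of the higher genes and for 153 of the 187 lower genes. TTCNNNGAA matched the 250 upstream bases of 3 of the higher genes (2.94%, Alpk1, Pros1 and Rab10os, named after the search) and of 5 of the 153 (3.27%), beside 5.9% of the 8003 tested genes with an entry and 7.18% of the 27025 genes in the table. With every listed start, an alternative chosen after seeing the data, the shares were 3.92%, 3.92%, 7.06% and 8.13%. The AP-1 motif TGANTCA matched 5.88% of the higher, 3.92% of the lower and 3.91% of the tested genes, and the cyclic AMP response motif TGACGTCA 1.96%, 4.58% and 2.85%; each was searched on both strands, and matches of different motifs may overlap in part. Cish, Junb, Rhbdd1, Ccrl2 and Prom2 had no STAT match in this window, which says only that these letters are not in it. Bhlhe40 and Cebpd had no entry.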

How the data were processed

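Per the labels' protocols, libraries of single bone marrow cells followed a modified Smart-seq2 procedure. The deposited values are raw counts of reads per gene and cell that the authors made with STAR 2.7.3a and featureCounts 2.0.0 of Subread on mm10, per the submitters' processing notes, which also name DESeq2; whether strand was used, and how reads of overlapping genes were counted, is not given in the sources used here. The 2 tables hold 283 and 280 cells and 46078 gene entries, 45229 of which matched GENCODE M21.

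LO cells numbered 144, 136 passed the limits, 135 remained without cell 58, and 118 were high or negative. Counts of nuclear genes, without spike-ins and mitochondrial genes, were summed over the cells of a class and table and scaled to CPM with TMM factors of edgeR 4.0.16 (R 4.3.3); DESeq2 1.42.0 gave median-ratio factors as an alternative. The level filter kept genes with a mean of 10 CPM and a read in 10% of cells. The size rule was met by 128 higher genes (102 with a promoter entry, 125, 123 and 113 tested in MID, HI and young cells) and 187 lower genes in LO cells, and by 136 higher genes in MID cells. Since no label ties cells to animals, each class is 1 sample per table; no p-value was computed. Intervals are exact Poisson (sums) and Clopper-Pearson (shares) at 95% and cover counting error only. No cell was called or removed as a doublet; the values without cells carrying 3 markers of another type, each at 2 reads or more, stand beside the results. The code was tested on simulated data.

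Genes named were the 15 highest and 15 lowest past the rule (without unnamed models and pseudogenes), up to 3 highest and 2 lowest of each of 27 pathway and 10 marker lists, and 29 given whatever their values. Members and lists were chosen with earlier results of these data known. Alternatives changed the Socs3 limit, depth, filters, pseudocount, scaling, tables and cells. Sums and figures used matplotlib 3.10.9, SciPy 1.17.1, pandas 2.3.3 and NumPy 2.4.6 under Python 3.11.15.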

Additional observations from a re-analysis of the deposited data

Results flagged for a closer look

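Cdkn2c, lower in Socs3-high LO cells in both tables (mean difference -1.85), was higher in Socs3-high MID cells in both tables (1.298, from 0.91 and 1.68), so the groups moved in opposite directions; the difference was not tested.

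Cry1, higher in Socs3-high LO cells in both tables (2.05), was lower in Socs3-high HI cells in both tables (-1.381, from -1.97 and -0.79); the difference was not tested. Cry1 was likewise lower in both tables of Socs3-high young cells (-2.669, from -3.36 and -1.98), where the high class held 4 and 8 cells; that difference was not tested either.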

How the results depend on the processing

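The number of genes higher by the size rule fell to 56 with a pseudocount of 10 CPM and 48 where the level filter asked for 50 CPM and a read in 25% of cells. The number lower was 71 and 30 under these, 380 without the cells carrying 3 markers of other types, 403 from the first table alone and 386 from the second. The median of the inhibitor list (0.156) was 0.368 without the marker-carrying cells and 0.39 in the first table. The value for median log2 difference, HSC identity genes (0.215 as reported) was 0.0916 in thinned cells, 0.0925 with a Socs3 limit of 100 CPM, 0.112 without cells with 8 G2 and M phase genes, 0.0736 without marker-carrying cells, 0.122 in cells with 20 Y-linked reads and 0.0613 in the second table. The S phase median (-0.754) was -1.49 in the second table. Cdkn2c changed sign without the marker-carrying cells (0.473). The cause of these shifts was not tested.

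Of 44 named genes past the rule, 10 met it in either table alone, where the limit on 1 cell's share of reads applies within fewer cells, 13 without marker-carrying cells, 30 without the cell with most of a gene's reads, 34 after thinning, 35 with a pseudocount of 10 CPM, 36 with a Socs3 limit of 100 CPM and in cells with 20 Y-linked reads, 37 by the mean over cells, 38 without cells with 8 G2 and M phase genes, 39 with cell 58, 41 in cells with at least 150000 reads, and 44 under each of median-ratio factors, no composition factor and a pseudocount of 0.1 CPM. No paired analysis was possible because cells carry numbers, not animals, and each class is 1 sample per table. The shares of genes with a STAT match kept within their counting intervals with every listed start. A negative cell may hold Socs3 below its own floor.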

Other observations

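Genes that kept one sign in both tables of LO, MID and HI cells were read as a list of their own. They were 2.05% (higher) and 1.63% (lower) of the named genes tested in all 3 groups, and unrelated signs would also leave some genes alike. The examples were chosen after their values were seen. Zfp551, a zinc finger gene, had the largest mean over the 6 values, 2.29, and was 1.37 and 1.16 in LO cells, 1.28 and 2.29 in MID cells and 3.69 and 3.93 in HI cells. It was also higher in both tables of young cells, by 1.28 and 2.45. Dusp7, a phosphatase gene of the MAP kinase pathway, was higher by 2.42 and 0.23 in LO cells, with a mean of 1.34 over the 6 values, and its young tables differed in sign (1.34 and -1.18). At the other end Slc16a13 and Kcna3, a potassium channel gene, had means of -1.93 and -1.76; their young tables differed in sign too, at 1.64 and -2.02 for Slc16a13 and -0.90 and 2.14 for Kcna3. Kcna3 was -2.49 and -1.30 in LO, -3.05 and -1.84 in MID and -0.92 and -0.99 in HI cells.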
